A study of Mus musculus with 32 samples.

Results

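The atria described here carried little Bmp10 and came from mice with a dominant negative phosphoinositide 3-kinase (PI3K), with or without the added kinase Mst1. They were chosen from the arrays of dnPI3K-Mst1 and dnPI3K animals by a Bmp10 signal below 9 log2, which kept 1 array per animal, 4 dnPI3K-Mst1 and 4 dnPI3K, or 8 of 32 arrays in all. The whole study measured both atria of 16 mice of 4 genotypes, dnPI3K-Mst1, Mst1, dnPI3K and Ntg (non-transgenic), with 4 animals each, on Affymetrix Mouse Gene 1.0 ST arrays. All animals shared a mixed C57BL/6 and FVB/N background and a standard chow diet. The dnPI3K-Mst1 animals carried both transgenes and the dnPI3K animals only the dominant negative PI3K, so the comparison gives the transcript changes that go with Mst1 on top of reduced PI3K signalling. The promoter of either transgene, the cells that express it, the number of founder lines, and the age and sex of the animals are not given in the sources used here. The 4 arrays of a group come from animals with different numbers, so the p-values rest on the spread among them.

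Mst1 is the upstream kinase of the Hippo pathway and is encoded by Stk4 (the mouse symbol Mst1 now belongs to an unrelated gene). It activates the LATS kinases, which phosphorylate the coactivators YAP and TAZ and keep them away from the TEAD transcription factors. In heart muscle it can also promote cell death. PI3K acts downstream of insulin and other growth factors and helps heart muscle cells to grow and survive, and atrial muscle of animals with weak PI3K signalling has been studied as a setting of atrial disease.

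Bmp10, a ligand of the bone morphogenetic protein family that adult mice make chiefly in right atrial muscle, split the 16 arrays of these genotypes into 2 sets with a wide gap. The level was 4.84, 4.68, 4.11 and 4.09 log2 in the dnPI3K-Mst1 animals, against 4.31, 6.13, 4.40 and 4.62 in the dnPI3K animals, in arrays of animals 1509, 1647, 1649 and 1650 and of animals 1507, 1648, 1660 and 3241, the order used throughout. The highest of these 8 was 6.13 log2 and the lowest level in the other 8 arrays was 12.23 log2, so no array lay near the threshold. Bmp10 chose the arrays, and its levels are a description. All 8 chosen arrays are labelled right, and the 8 arrays with high Bmp10 are labelled left, which goes against the side on which the gene is usually found. The chosen atria are therefore called Bmp10-low, and no side is assigned to them. For tissue identity, Nppa, the gene of atrial natriuretic peptide, was at 13.36 to 13.52 log2, while the ventricular light chain gene Myl2 averaged 4.60 log2 in dnPI3K-Mst1 and 4.63 in dnPI3K.

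Stk4 was read at 8.12, 8.37, 8.25 and 8.37 log2 in the dnPI3K-Mst1 animals, against 7.51, 7.51, 7.58 and 7.66 in the dnPI3K animals. Every dnPI3K-Mst1 animal lay above every dnPI3K animal, by 0.71 ± 0.09 log2 (SE), or 1.64-fold (adjusted p = 0.00034). Whether the probes read the transgene, the animal's own transcript or both is not given in the sources used here. Pik3ca, which encodes the p110 alpha catalytic subunit, was at 10.24, 9.96, 10.43 and 10.24 log2 in the dnPI3K-Mst1 animals, against 10.08, 10.07, 9.99 and 10.002 in the dnPI3K animals, and these groups overlapped (adjusted p = 0.282).

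**Figure D1:**
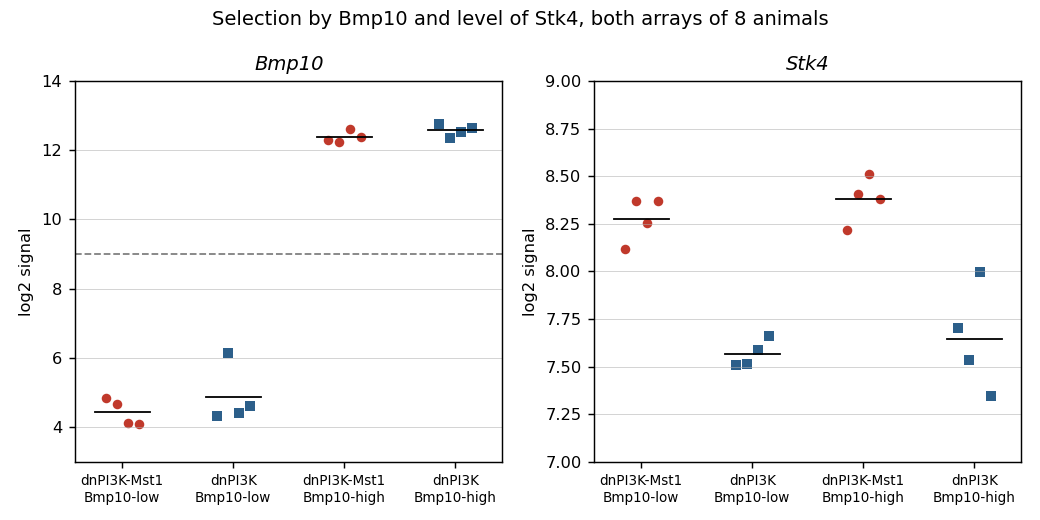
Log2 signal of Bmp10 (left) and Stk4 (right) in both arrays of the 4 dnPI3K-Mst1 and 4 dnPI3K animals. Each point is 1 array, bars are group means, and the dashed line is the threshold of 9 log2. Bmp10 reaches at most 6.13 log2 in the chosen arrays, and Stk4 is higher with Mst1 in Bmp10-low atria without overlap.

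The array of dnPI3K-Mst1 animal 1647 stood somewhat apart, with a mean correlation of 0.9734 to the other arrays of its group, against 0.9814 to 0.984 for the other dnPI3K-Mst1 arrays and 0.9855 to 0.9867 for the dnPI3K arrays. Correlations between any pair of the 8 arrays ran from 0.9398 to 0.9881, and array medians over the study from 5.51 to 5.68 log2. All 8 arrays had Xist, transcribed from the inactive X chromosome, between 3.17 and 3.64 log2, below the filter of 4.48 log2. The Y-linked gene Eif2s3y was between 7.47 and 8.55 log2, so the animals of both groups read as male. With 4 arrays a group, their number limits the precision.

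Adding Mst1 was accompanied by more transcripts of matrix, cytoskeletal and stress genes and fewer transcripts of mitochondrial energy metabolism, creatine kinases and atrial ion channels. Of 15219 genes tested, 2197 differed at an adjusted p under 0.05 (14.4%), 1157 higher (7.60%) and 1040 lower (6.83%) in dnPI3K-Mst1. At least 2-fold changes made up 168 of the higher and 126 of the lower genes, together 1.93% of the genes tested. The 4 and 4 animals did not overlap for 2994 genes (19.7%), of which 2012 were also called. The number called ran from 1528, without dnPI3K 1648 or 3241, to 2252, without dnPI3K-Mst1 1647, when each animal was left out in turn. More genes fell than rose under other scalings, with 957 higher and 1034 lower after centring each array on its median and 1034 higher and 1224 lower after quantile normalization, and likewise without dnPI3K-Mst1 1509 (816 higher, 839 lower) or 1650 (909 higher, 939 lower). Whole atrial tissue was measured, so fewer cells of a type and less RNA per cell cannot be told apart.

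Thbs4, which encodes the matricellular protein thrombospondin-4, was the largest rise among called genes without overlap, unnamed gene models left out. It was at 8.33, 9.03, 8.93 and 9.13 log2 in the dnPI3K-Mst1 animals, against 5.64, 5.45, 5.45 and 5.34 in the dnPI3K animals. The lowest dnPI3K-Mst1 animal lay far above the highest dnPI3K animal, and the difference was 3.38 ± 0.15 log2 (SE), or 10.4-fold (adjusted p = 6.08e-07). Thbs1, encoding thrombospondin-1, which can activate latent TGF-beta, was at 9.68, 11.23, 9.63 and 9.60 log2 in the dnPI3K-Mst1 animals, against 7.52, 6.55, 7.65 and 6.22 in the dnPI3K animals. Animal 1647 was the highest of these 8 by a wide margin, and the difference was 3.05 ± 0.39 log2, or 8.3-fold (adjusted p = 0.000391). Leaving out each animal in turn gave Thbs1 differences of 2.65 to 3.27 log2.

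Among the other large rises were more secreted and matrix proteins. Cilp, a cartilage intermediate layer protein made by cardiac fibroblasts, rose by 2.52 ± 0.15 log2 (SE; adjusted p = 2.97e-06), and Aspn, the small leucine-rich proteoglycan asporin, by 2.37 ± 0.14 (adjusted p = 2.79e-06). Col12a1, a collagen that coats fibrils, rose by 2.37 ± 0.15, and Ltbp2, of the latent TGF-beta binding protein family, by 2.35 ± 0.20. Sfrp2, a secreted Wnt antagonist, rose by 2.33 ± 0.22 log2. Gdf6, a ligand of the bone morphogenetic protein family, was at 8.75, 7.83, 8.04 and 8.13 log2 in the dnPI3K-Mst1 animals, against 5.65, 5.69, 5.33 and 5.81 in the dnPI3K animals, a difference of 2.57 ± 0.18 log2 (adjusted p = 9.55e-06). Outside the matrix, Uchl1, a deubiquitinase abundant in neurons, rose by 2.44 ± 0.13 log2. Piezo2, a cation channel opened by mechanical force, was at 7.81, 8.40, 7.995 and 8.15 log2 in the dnPI3K-Mst1 animals, against 5.50, 5.26, 5.82 and 6.08 in the dnPI3K animals. Its difference was 2.42 ± 0.17 log2 (adjusted p = 1.32e-05). The groups overlapped in none of these 10 genes, because only genes without overlap were eligible.

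The largest falls were led by enzymes. Inmt, an N-methyltransferase of indoles and other amines, was at 8.28, 6.18, 6.90 and 7.85 log2 in the dnPI3K-Mst1 animals, against 10.05, 10.60, 10.85 and 11.05 in the dnPI3K animals. The dnPI3K-Mst1 animals were spread over more than 2 log2 and all lay below the dnPI3K animals, with a difference of -3.34 ± 0.38 log2 (adjusted p = 0.000196). Ckm, the muscle creatine kinase, was at 6.90, 6.02, 6.92 and 7.02 log2 in the dnPI3K-Mst1 animals, against 9.75, 10.04, 10.09 and 10.17 in the dnPI3K animals, a fall of 9.85-fold (-3.30 ± 0.19 log2, adjusted p = 2.79e-06). Scd4, a stearoyl-CoA desaturase of heart, fell by 2.94 log2, to a narrow range of 5.07 to 5.32 in dnPI3K-Mst1. Ces1d, a carboxylesterase that hydrolyses lipids, had a log2 difference of -2.60 ± 0.40, and Mylk4, of the myosin light chain kinase family, one of -2.56 ± 0.21. The other genes of this set were Ifi205 (-2.70 ± 0.21 log2), an interferon-activated gene, Fbxw18 (-2.68 ± 0.11), which encodes an F-box protein, and Scgb1c1 (-2.35 ± 0.26), a secretoglobin. Kcnh7 and Ckmt2, a potassium channel and the mitochondrial creatine kinase, complete the 10, which were likewise chosen among genes without overlap.

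**Figure D2:**
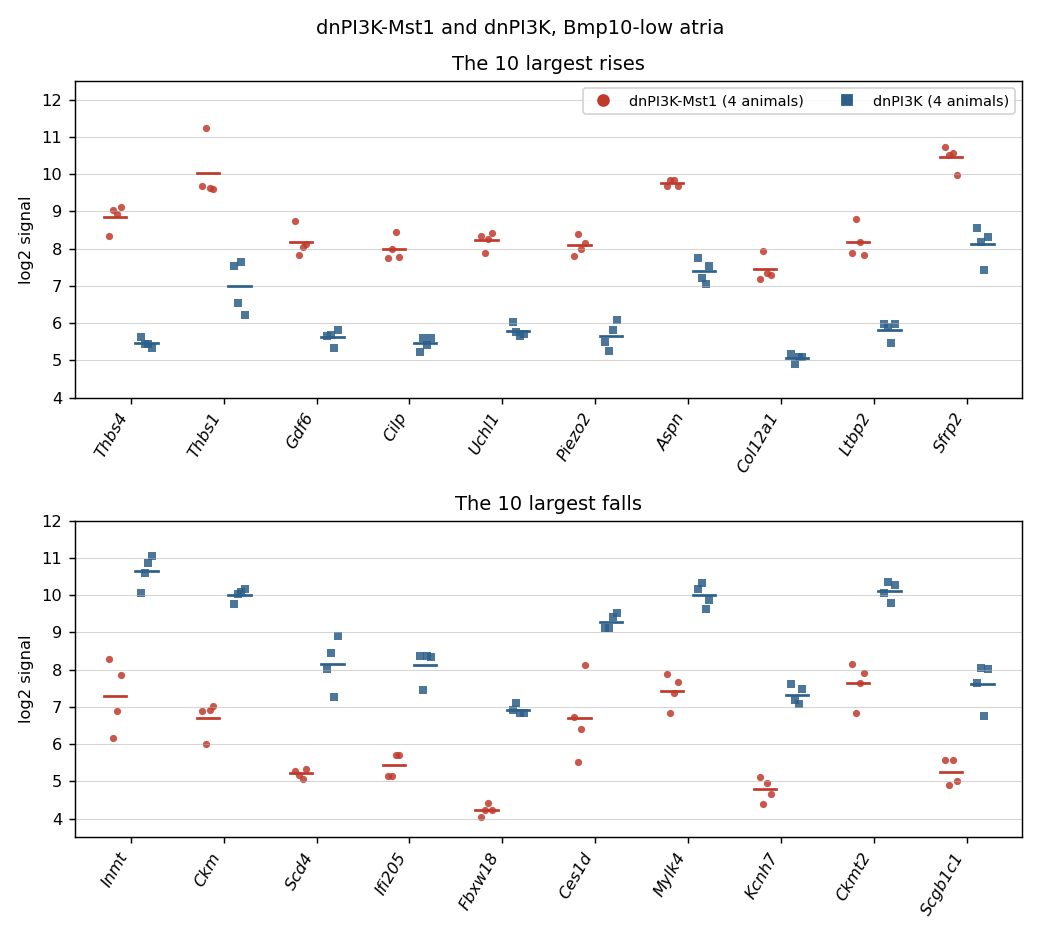
Log2 signal in each Bmp10-low atrium for the 10 genes with the largest rises (top) and falls (bottom), dnPI3K-Mst1 left and dnPI3K right for each gene. Points are animals and bars are group means. The 20 genes were chosen among those whose groups do not overlap, and the highest Thbs1 point is animal 1647.

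The promoters of Thbs4, the largest rise, and of the called genes of largest change among YAP and TEAD targets (Fstl1), creatine genes (Ckm) and oxidative phosphorylation (Cox7a1) are shown to compare the letters beside genes that moved in opposite directions. Thbs4 was picked for this after its values were seen. Each sequence runs from 250 bases before to 50 bases after the annotated start, in the direction of the gene, from RefSeq on GRCm38.p6. Capitals mark matches to CATTCC (the TEAD motif), TGACTCA (AP-1), TGACGTCA (CRE), TCAAGGTCA (the motif of estrogen-related receptors), TATAAA (the box of basal promoters) or CANNTG (an E-box), or to the serum response element, CArG and MEF2 boxes, on either strand. TATAAA, the E-box, the CArG box and the MEF2 box were added after the values were seen.
Thbs4, chr13:92794769-92795068, minus strand: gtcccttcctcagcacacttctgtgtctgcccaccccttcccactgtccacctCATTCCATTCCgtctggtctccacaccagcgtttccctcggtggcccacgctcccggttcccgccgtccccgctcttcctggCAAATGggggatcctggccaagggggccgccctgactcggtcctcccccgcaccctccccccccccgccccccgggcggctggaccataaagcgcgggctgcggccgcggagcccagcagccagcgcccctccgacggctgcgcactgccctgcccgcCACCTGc
Fstl1, chr16:37776805-37777104, plus strand: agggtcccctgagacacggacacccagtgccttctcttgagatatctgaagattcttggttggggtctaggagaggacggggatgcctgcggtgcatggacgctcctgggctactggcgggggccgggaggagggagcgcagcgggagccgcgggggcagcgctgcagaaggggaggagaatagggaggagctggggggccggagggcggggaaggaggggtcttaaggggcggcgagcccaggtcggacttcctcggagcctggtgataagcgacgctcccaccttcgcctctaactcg
Ckm, chr7:19410844-19411143, plus strand: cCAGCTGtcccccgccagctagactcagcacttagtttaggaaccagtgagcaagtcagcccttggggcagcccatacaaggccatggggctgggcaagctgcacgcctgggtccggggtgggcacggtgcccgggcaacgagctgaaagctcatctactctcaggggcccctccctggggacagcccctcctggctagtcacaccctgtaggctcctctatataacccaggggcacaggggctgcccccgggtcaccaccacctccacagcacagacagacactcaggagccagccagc
Cox7a1, chr7:30183921-30184220, plus strand: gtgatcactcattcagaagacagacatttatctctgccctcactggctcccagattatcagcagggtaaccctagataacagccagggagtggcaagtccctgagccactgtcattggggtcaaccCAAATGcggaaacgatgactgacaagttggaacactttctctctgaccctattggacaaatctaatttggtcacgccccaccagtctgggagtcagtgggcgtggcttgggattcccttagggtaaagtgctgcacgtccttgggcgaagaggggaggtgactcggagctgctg

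The Thbs4 window holds CATTCC in 2 overlapping copies that begin at positions -197 and -192 from the start, and E-boxes at -115 and 44. CATTCC occurs in 14.66% of the 32851 promoters of that length in the table, and CANNTG in 72.31%. The Ckm and Cox7a1 windows hold 1 E-box each, at -249 and -124, and no other capital letters appear in them. The Fstl1 window has none of these letters. Among called YAP and TEAD targets, 8 of 11 had a promoter in the table and 3 of the 8 hold CATTCC. Among called oxidative phosphorylation genes, 61 of 73 had one and 7 hold CATTCC. Among all tested members, called or not, CATTCC lies in 8 of 18 promoters of YAP and TEAD targets. For oxidative phosphorylation it lies in 7 of 64. A match is a description of the letters in this window and not a site of binding.

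Hippo pathway genes were more often higher than lower. Of 36 tested members, Stk4 included, 12 rose and 1 fell, with a median difference of 0.21 log2, beside -0.002 over all genes tested. The kinases Stk38 and Stk38l, of the NDR family related to LATS, rose by 0.57 ± 0.10 and 0.50 ± 0.10 log2. Lats2 rose by 0.42 and Lats1 by 0.29 log2 (adjusted p = 0.0153 and 0.0464). Their MOB partners Mob1a and Mob1b rose by 0.36 and 0.48 log2. Of the transcriptional end, Vgll3, a TEAD cofactor, rose by 0.52 ± 0.12, Tead3 by 0.36, and Wwtr1, the gene of TAZ, by 0.32 log2. Yap1 had a difference of 0.19 log2 and Sav1, the scaffold that binds Mst1, of 0.26 log2, and neither passed the test. The fallen member, Tnik, a kinase of the MAP4K family, differed by -0.32 ± 0.09 log2 (adjusted p = 0.0408) and lost its call when any 1 of 7 animals was left out. The count of risen members was 5 without dnPI3K-Mst1 1509, 7 without dnPI3K 1648 or 1660, and 6 without dnPI3K 3241. Apart from Stk4, the called rises in this list lay between 0.29 and 0.57 log2. Lats2 lost its call without dnPI3K-Mst1 1509 (adjusted p = 0.0517), Lats1 without any 1 of 7 animals (adjusted p = 0.0516 to 0.134) and Mob1a without any 1 of 4 animals (adjusted p = 0.0524 to 0.0665). Mob1b, Tead3 and Wwtr1 lost their calls without any 1 of 6 animals (adjusted p = 0.0549 to 0.112).

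Of 27 listed YAP and TEAD targets, 25 passed the filter on dim genes, 11 rose and 0 fell, with a median of 0.34 log2. Fstl1, follistatin-like 1, was at 9.78, 10.62, 9.81 and 9.93 log2 in the dnPI3K-Mst1 animals, against 9.31, 8.76, 8.92 and 9.01 in the dnPI3K animals, with animal 1647 the highest, and rose by 1.04 ± 0.18 log2 (adjusted p = 0.00255). Myof, myoferlin, rose by 0.78 ± 0.18 log2, and Tgfb1i1, an adaptor of focal adhesions, by 0.64 ± 0.13 log2. Igfbp3, an insulin-like growth factor binding protein, rose by 0.73 log2 (adjusted p = 0.0204). The targets most used as readouts did not pass the test. Ccn2, connective tissue growth factor, was at 12.08, 11.81, 11.91 and 11.82 log2 in the dnPI3K-Mst1 animals, against 11.93, 11.45, 11.44 and 11.06 in the dnPI3K animals, which overlap, and the difference was 0.44 ± 0.15 log2 (adjusted p = 0.0835). Without dnPI3K animal 1507 it was 0.59 log2 (adjusted p = 0.0108). Ccn1 was at 10.37, 11.62, 10.52 and 10.11 log2 in the dnPI3K-Mst1 animals, against 10.30, 10.24, 10.998 and 8.74 in the dnPI3K animals, a spread of over 2 log2 among the dnPI3K animals (adjusted p = 0.415). Ankrd1, a stress-responsive ankyrin repeat protein, differed by 0.16 ± 0.09 log2 (adjusted p = 0.281). The count of risen targets was 6 without dnPI3K-Mst1 1509 and 6 without dnPI3K 1648. Igfbp3 lost its call without dnPI3K 1507 or 1648 (adjusted p = 0.0508 to 0.0658).

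Cardiac stress genes rose more often than they fell, without a call for Nppa, Nppb or Myh7. Of 33 tested members 13 rose and 4 fell (median 0.43 log2), beside 7.60% higher and 6.83% lower of all genes tested. The list, like the others, was chosen with earlier results of these data known. It includes Thbs4 and Uchl1, both among the largest rises, and Thbs4 is also counted with the matrix genes. Xirp2, a partner of actin and the Z-disc, was at 11.33, 11.35, 11.82 and 11.95 log2 in the dnPI3K-Mst1 animals, against 10.18, 9.27, 8.94 and 8.94 in the dnPI3K animals, with no overlap and a rise of 2.28 ± 0.25 log2 (adjusted p = 0.000166). Sprr1a, a small proline-rich protein induced in stressed myocytes, rose by 2.04 ± 0.17 log2. Nes, the intermediate filament nestin, rose by 1.84 ± 0.23 log2. Acta1, skeletal alpha-actin, was at 7.05, 7.22, 7.002 and 7.07 log2 in the dnPI3K-Mst1 animals, against 6.25, 6.23, 6.32 and 6.41 in the dnPI3K animals, a rise of 0.79 ± 0.09 log2 with narrow groups (adjusted p = 0.000177). Nppb, the gene of B-type natriuretic peptide, was at 12.33, 12.18, 12.36 and 12.42 log2 in the dnPI3K-Mst1 animals, against 12.40, 12.07, 12.10 and 12.04 in the dnPI3K animals, and the groups overlapped (adjusted p = 0.337). Nppa differed by 0.05 ± 0.08 log2 (adjusted p = 0.726) and Myh7, the slow myosin heavy chain, by -0.05 ± 0.15 (adjusted p = 0.867). The 4 that fell were Mybphl, Csrp3, Mt1 and Synm, at -0.54, -0.49, -0.48 and -0.42 log2. The number that fell was 1 to 3 when an animal was left out, and 1 without dnPI3K-Mst1 1650, dnPI3K 1507 or dnPI3K 3241. Mybphl and Synm lost their calls without any 1 of 6 animals (adjusted p = 0.0653 to 0.142) and Mt1 without any 1 of 5 animals (adjusted p = 0.0541 to 0.078).

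Genes of the cytoskeleton and actin dynamics rose in 20 of 45 cases and fell in 3 (median 0.50 log2). Pak3, a p21-activated kinase that remodels actin, was at 7.23, 6.58, 7.48 and 7.24 log2 in the dnPI3K-Mst1 animals, against 5.13, 5.13, 4.93 and 5.01 in the dnPI3K animals, a rise of 2.08 ± 0.16 log2 (adjusted p = 1.88e-05). Actn1, the actinin of adhesions, rose by 1.21 ± 0.17 log2. Tuba4a, an alpha-tubulin, fell by 1.08 log2 (adjusted p = 0.000916). The smooth muscle genes Tagln and Cnn1, which bind actin, also rose. Tagln was at 8.91, 9.11, 8.47 and 9.10 log2 in the dnPI3K-Mst1 animals, against 6.64, 6.57, 7.12 and 6.84 in the dnPI3K animals, and Cnn1, calponin, rose by 2.22 ± 0.23 log2, against 2.10 ± 0.16 for Tagln. Of 14 tested smooth muscle and pericyte markers 6 rose and 2 fell. Myh11, the smooth muscle myosin, differed by 0.61 log2 (adjusted p = 0.202), and the pericyte genes Abcc9 and Rgs5 were the 2 that fell (-0.93 and -0.57 log2).

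Extracellular matrix genes rose far more often than they fell. Of 24 collagens 14 rose and 0 fell (median 0.63 log2), and of 55 tested matrix proteins and remodelling enzymes 26 rose and 2 fell (median 0.61 log2). Col8a1, a short-chain collagen, was at 8.51, 9.59, 8.72 and 8.65 log2 in the dnPI3K-Mst1 animals, against 7.40, 6.80, 6.72 and 7.02 in the dnPI3K animals, a rise of 1.88 ± 0.22 log2 (adjusted p = 0.000218). Col1a1, the main chain of type I collagen, was at 10.47, 12.07, 10.72 and 10.51 log2 in the dnPI3K-Mst1 animals, against 9.98, 9.53, 9.31 and 9.01 in the dnPI3K animals. Animal 1647 exceeded the next by more than 1 log2, and the rise was 1.48 ± 0.32 log2 (adjusted p = 0.00846). Col1a1 kept its call when animal 1647 or any other was left out, with differences of 1.11 to 1.66 log2. Type III collagen, Col3a1, differed by 0.88 log2 (adjusted p = 0.0844) and did not pass the test. The basement membrane chains Col4a1 and Col4a2 rose by 0.79 and 0.82 log2, and the 3 chains of type VI collagen, Col6a1, Col6a2 and Col6a3, by 0.85, 0.89 and 1.24 log2. The number of collagens called was 8 without dnPI3K 1648, and 9 without dnPI3K 1660 or 3241. Col4a1 lost its call without any 1 of 4 animals (adjusted p = 0.0605 to 0.101) and Col4a2 without dnPI3K 1648 or 1660 or 3241 (adjusted p = 0.0569 to 0.0688). Col3a1 passed the test without dnPI3K-Mst1 1647 (adjusted p = 0.0156).

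Of the matrix genes that fell, Adamts8, a secreted metalloprotease, was at 7.81, 7.44, 7.76 and 7.74 log2 in the dnPI3K-Mst1 animals, against 9.80, 9.79, 8.42 and 8.81 in the dnPI3K animals, a difference of -1.52 ± 0.27 log2 (adjusted p = 0.00293). The other was Ltbp1, a carrier of latent TGF-beta, with -0.70 ± 0.13 log2 (adjusted p = 0.00405), while its relative Ltbp2 rose. Without animal 1647 the number of matrix genes that fell was 5. Postn, periostin, a matricellular protein of activated fibroblasts, was at 9.53, 10.37, 9.91 and 9.70 log2 in the dnPI3K-Mst1 animals, against 8.61, 7.89, 8.24 and 7.86 in the dnPI3K animals, and rose by 1.73 ± 0.20 log2 (adjusted p = 0.000187). Timp1, an inhibitor of matrix metalloproteases, rose by 1.76 log2 (adjusted p = 0.000177).

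In TGF-beta and BMP signalling, 17 of 38 tested genes rose and 1 fell (median 0.36 log2). Of the ligands, Bmp4 was at 9.54, 8.58, 8.58 and 8.95 log2 in the dnPI3K-Mst1 animals, against 7.25, 6.98, 6.52 and 7.24 in the dnPI3K animals, a rise of 1.91 ± 0.22 log2 (adjusted p = 0.000187), and Inhba, an activin chain, rose by 1.16 ± 0.14 log2. Tgfb2 rose by 0.57 log2, whereas Tgfb1 and Tgfb3 differed by 0.38 and 0.31 log2 and did not pass the test. Of the receptors, Tgfbr1 rose by 1.07 ± 0.15 log2. Tgfbr3, the co-receptor betaglycan, was the member that fell (-0.50 ± 0.11 log2, adjusted p = 0.0121). The inhibitory Smads, which their own pathways induce, were higher: Smad6 was at 8.85, 8.17, 8.73 and 8.59 log2 in the dnPI3K-Mst1 animals, against 7.52, 6.96, 7.41 and 6.99 in the dnPI3K animals, and Smad7 rose by 1.01 log2. The BMP targets Id2 and Id3 rose by 0.83 and 0.72 log2, and Id1 differed by 0.33 log2 without a call. The count of risen genes was 10 without dnPI3K 1648 and 11 without dnPI3K 3241. Secreted Wnt modulators rose in 6 of 23 cases and fell in 0, or 1 without dnPI3K 3241. Sfrp2 led them, followed by Frzb, a secreted antagonist, at 1.99 ± 0.17 log2, and Ccn5, at 1.71 ± 0.24 log2. The Wnt receptor genes Fzd1 and Fzd2 rose by 0.87 and 0.50 log2, while Axin2, a target of beta-catenin, differed by 0.00 log2 (adjusted p = 0.995). Tgfb2 lost its call without any 1 of 4 animals (adjusted p = 0.0655 to 0.0703). Tgfb1 and Tgfb3 passed the test without dnPI3K 1507 (adjusted p = 0.0317 to 0.0481).

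Growth factor genes moved both ways, with 9 of 41 higher and 10 lower (median 0.00 log2). Edn1, endothelin-1, a vasoactive peptide that also drives myocyte growth, was at 9.42, 9.67, 8.68 and 9.23 log2 in the dnPI3K-Mst1 animals, against 7.67, 7.35, 6.77 and 7.39 in the dnPI3K animals, a rise of 1.96 ± 0.22 log2 (adjusted p = 0.000166). Nrg1, neuregulin-1, was at 9.49, 9.51, 9.16 and 9.15 log2 in the dnPI3K-Mst1 animals, against 8.14, 8.17, 7.34 and 8.33 in the dnPI3K animals, and rose by 1.33 ± 0.19 log2, while its receptor gene Erbb4 differed by -0.78 log2 (adjusted p = 0.0233). Ereg, epiregulin, rose by 1.38 ± 0.16 log2 and Fgf2 by 0.71. Lower were Angpt1, the ligand of the endothelial receptor Tie2, at 9.35, 8.74, 9.39 and 9.27 log2 in the dnPI3K-Mst1 animals, against 10.57, 10.60, 10.42 and 10.70 in the dnPI3K animals, a difference of -1.39 ± 0.14 log2 (adjusted p = 8.49e-05), and Igf1, insulin-like growth factor 1, with -1.19 log2 (adjusted p = 0.00194). Agtr1a, the angiotensin receptor, differed by -1.02 log2, Vegfb by -0.80 and Fgf1 by -0.64 log2, all called. Erbb4 lost its call without dnPI3K-Mst1 1509 or dnPI3K 1648 or 3241 (adjusted p = 0.0567 to 0.0771).

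**Figure D3:**
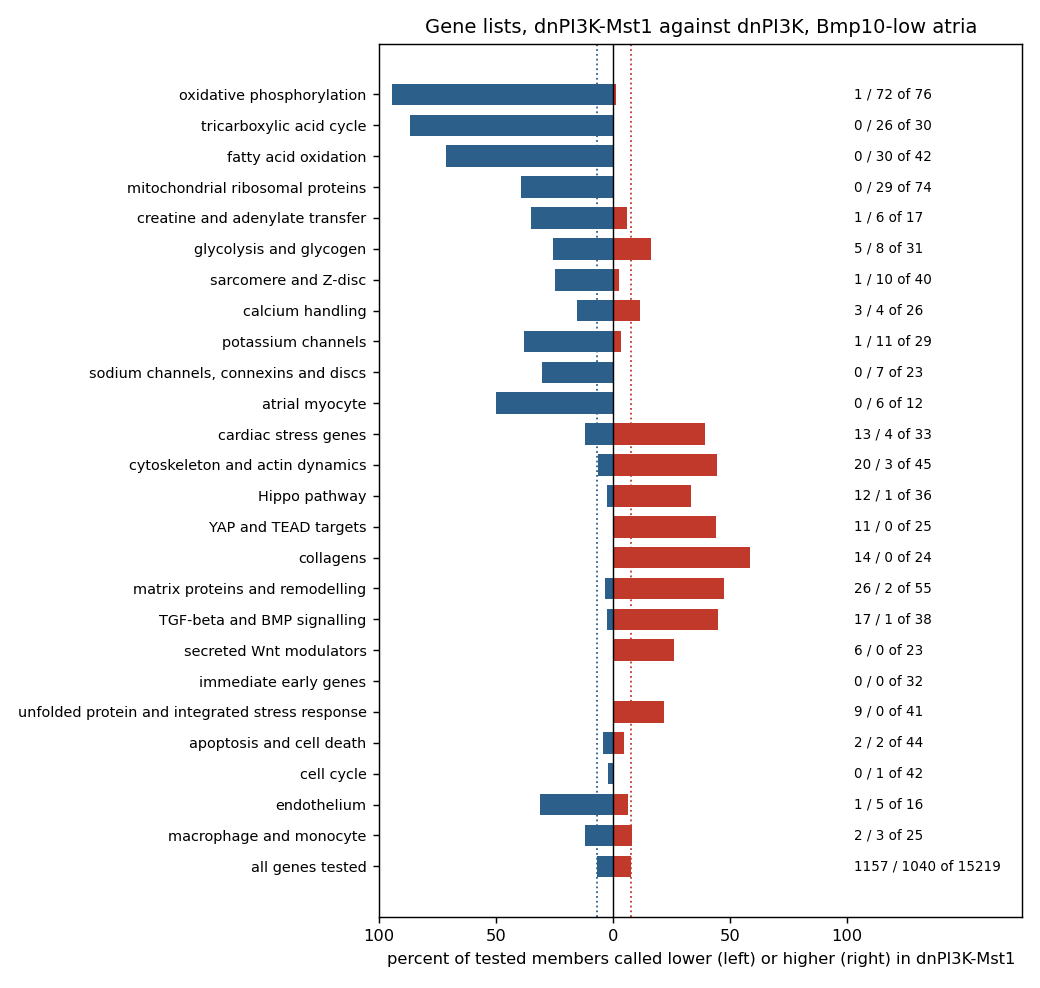
Percent of tested members called lower (bars to the left) or higher (bars to the right) in dnPI3K-Mst1 against dnPI3K, Bmp10-low atria, for 25 gene lists and all genes tested, with the numbers higher / lower of tested at the right. Dotted lines mark the shares over all genes, 7.60% higher and 6.83% lower. The mitochondrial lists lie far to the left and the matrix and cytoskeletal lists to the right.

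Most tested genes of mitochondrial energy metabolism fell. Of 76 tested genes of oxidative phosphorylation 72 fell and 1 rose, with a median of -0.63 log2, beside -0.002 over all genes tested. For 68 of them every dnPI3K-Mst1 animal lay below every dnPI3K animal, against 8.90% of all genes. Cox7a1, the muscle isoform of a cytochrome c oxidase subunit, was at 9.40, 8.48, 9.19 and 9.29 log2 in the dnPI3K-Mst1 animals, against 10.75, 10.90, 10.59 and 10.80 in the dnPI3K animals. Animal 1647 was the lowest, and the difference was -1.67 ± 0.17 log2, or 3.18-fold lower (adjusted p = 0.00011). Cox8b, another muscle isoform of that complex, had a difference of -1.27 ± 0.16 log2, and Atp5g1, a subunit of the ATP synthase rotor ring, of -1.19 ± 0.14 log2. Ndufa5, a subunit of complex I, had -0.98 ± 0.15 log2 (adjusted p = 0.00131), and Sdhb of complex II -0.90 ± 0.12 log2. The risen member, Cox6a1, the non-muscle isoform of a cytochrome c oxidase subunit, was at 9.23, 8.72, 9.44 and 8.98 log2 in the dnPI3K-Mst1 animals, against 8.70, 8.70, 8.64 and 8.53 in the dnPI3K animals, a difference of 0.45 ± 0.14 log2 (adjusted p = 0.0475) that lost its call when any 1 of 7 animals was left out. The number lower was 58 to 70 when each animal was left out.

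Of 30 genes of the tricarboxylic acid cycle 26 fell and 0 rose (median -0.66 log2). Idh2, the mitochondrial isocitrate dehydrogenase, was at 10.33, 9.85, 10.25 and 10.31 log2 in the dnPI3K-Mst1 animals, against 11.11, 11.33, 11.01 and 11.37 in the dnPI3K animals, a difference of -1.02 ± 0.13 log2 (adjusted p = 0.000307). Of 42 genes of fatty acid oxidation 30 fell and 0 rose (median -0.74 log2). Acaa2, a thiolase of mitochondrial beta-oxidation, was at 9.71, 9.29, 9.37 and 10.10 log2 in the dnPI3K-Mst1 animals, against 10.81, 10.70, 10.90 and 11.14 in the dnPI3K animals, a difference of -1.27 ± 0.17 log2 (adjusted p = 0.00047). Acot2, a mitochondrial acyl-CoA thioesterase, differed by -1.18 ± 0.20 log2. Mitochondrial ribosomal proteins fell in 29 of 74 cases and rose in 0 (median -0.30 log2), with Mrpl42 at -1.004 ± 0.12 log2. That count was 16 without dnPI3K animal 3241. Of 48 cytosolic ribosomal proteins 0 rose and 1 fell (median -0.08 log2), and the number that fell was 0 without any 1 of 6 animals.

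Of 24 tested regulators of mitochondrial genes 2 rose and 2 fell, beside 7.60% higher and 6.83% lower of all genes tested. The median was -0.09 log2. Rxrg, a retinoid X receptor, was at 5.11, 4.56, 4.70 and 4.93 log2 in the dnPI3K-Mst1 animals, against 5.59, 6.22, 5.99 and 6.28 in the dnPI3K animals, a difference of -1.19 ± 0.16 log2 (adjusted p = 0.000597), and Gabpa, a factor of nuclear-encoded respiratory genes, had -0.41 log2 (adjusted p = 0.0401). Ppargc1a, the coactivator PGC-1 alpha, differed by -0.53 log2 (adjusted p = 0.108), Ppara by -0.51 (adjusted p = 0.152) and Esrra by -0.21 log2 (adjusted p = 0.161), none of them called. Pparg and Cebpb, better known from fat cells and inflammation, were the 2 that rose (0.71 and 0.52 log2). The number that fell was 1 without any 1 of 6 animals and 4 without dnPI3K-Mst1 1650, and the number that rose was 1 without dnPI3K 3241. Gabpa lost its call without any 1 of 7 animals (adjusted p = 0.0531 to 0.101) and Pparg without dnPI3K 3241 (adjusted p = 0.0511). Ppara passed the test without dnPI3K-Mst1 1650 (adjusted p = 0.027).

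Creatine and adenylate transfer was lower at its muscle enzymes. Besides Ckm, Ckmt2, the sarcomeric mitochondrial creatine kinase, was at 8.16, 6.84, 7.63 and 7.90 log2 in the dnPI3K-Mst1 animals, against 10.06, 10.35, 9.79 and 10.28 in the dnPI3K animals, a fall of 5.6-fold (-2.48 ± 0.24 log2, adjusted p = 6.16e-05). Ckb, the brain-type isoform, differed by 0.33 log2 (adjusted p = 0.0682). Slc25a4, the muscle carrier that exchanges ADP for ATP, had -0.64 ± 0.10 log2 and Vdac1, the outer membrane pore, -0.60 ± 0.12 log2. In all 6 of 17 tested members fell and 1 rose. The risen member was Slc6a8, the creatine transporter of the plasma membrane, at 7.97, 7.84, 8.32 and 8.13 log2 in the dnPI3K-Mst1 animals, against 7.60, 7.79, 7.45 and 7.27 in the dnPI3K animals (difference 0.54 ± 0.13 log2, adjusted p = 0.0174). Without dnPI3K 3241 its adjusted p was 0.0551 and no member was called higher, while 2 were without dnPI3K-Mst1 1649 or dnPI3K 1648. In glycolysis and glycogen metabolism 5 of 31 tested genes rose and 8 fell (median -0.15 log2). The glucose transporter Slc2a1, found in most cell types, was at 7.79, 8.23, 8.26 and 8.17 log2 in the dnPI3K-Mst1 animals, against 7.01, 7.08, 7.20 and 6.92 in the dnPI3K animals, a rise of 1.06 ± 0.12 log2 (adjusted p = 0.000156), whereas Slc2a4, the insulin-responsive one, differed by -0.82 log2 (adjusted p = 0.00181). Isoforms split likewise: Pfkl and Pgam1 rose by 0.74 and 0.82 log2, while the muscle forms Pfkm and Eno3 had -0.56 and -0.88 log2. Ldhb, the heart-type lactate dehydrogenase, had -1.05 ± 0.12 log2, and Ldha 0.29 log2 (adjusted p = 0.0601). The number of glycolytic genes that fell was 5 without dnPI3K 1648 or 3241. Pfkm lost its call without dnPI3K 1648 or 3241 (adjusted p = 0.0519 to 0.0556). Ckb passed the test without dnPI3K 1648 (adjusted p = 0.0341) and Ldha without dnPI3K 3241 (adjusted p = 0.0493).

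Potassium channel genes fell more often than they rose. Of 29 tested potassium channel genes 11 fell and 1 rose (median -0.29 log2). Kcnh7, of the ERG family of delayed rectifiers, was at 5.11, 4.40, 4.96 and 4.66 log2 in the dnPI3K-Mst1 animals, against 7.60, 7.17, 7.07 and 7.48 in the dnPI3K animals, a fall of 5.85-fold (adjusted p = 5.37e-06). Kcnd2 and its partner Kcnip2 form channels of the transient outward current, which repolarises the mouse heart. Kcnd2 was at 6.34, 5.28, 5.79 and 5.55 log2 in the dnPI3K-Mst1 animals, against 7.28, 7.54, 7.50 and 7.76 in the dnPI3K animals (difference -1.78 ± 0.19 log2), and Kcnip2 was at 6.76, 5.83, 6.67 and 6.47 log2 in the dnPI3K-Mst1 animals, against 7.93, 8.18, 7.46 and 7.75 in the dnPI3K animals (difference -1.40 ± 0.20 log2, adjusted p = 0.000867). Kcnj3 encodes a subunit of the acetylcholine-activated channel of atrial muscle, with a difference of -1.38 ± 0.15 log2 (adjusted p = 0.000167). Its partner Kcnj5 differed by -0.04 log2 (adjusted p = 0.904). Kcne4, an accessory subunit, was the member that rose, at 6.44, 7.13, 5.91 and 5.93 log2 in the dnPI3K-Mst1 animals, against 5.25, 5.64, 5.53 and 5.39 in the dnPI3K animals (0.90 ± 0.23 log2, adjusted p = 0.0211). Its adjusted p was between 0.0566 and 0.0612 without dnPI3K-Mst1 1509, dnPI3K 1507 or dnPI3K 3241, and 3 channel genes were higher without dnPI3K-Mst1 1647.

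Among sodium channels, connexins and intercalated disc genes 7 of 23 fell and 0 rose (median -0.13 log2). Gja5, connexin 40, the main gap junction protein of atrial muscle, was at 8.72, 9.02, 9.55 and 9.18 log2 in the dnPI3K-Mst1 animals, against 10.16, 10.27, 10.35 and 10.38 in the dnPI3K animals, a difference of -1.17 ± 0.15 log2 (adjusted p = 0.000355), and Gja1, connexin 43, had -0.43 log2 (adjusted p = 0.0175). The desmosomal cadherins Dsc2 and Dsg2 had -1.51 ± 0.19 and -0.82 ± 0.11 log2. The desmosomal plaque genes Dsp, Pkp2 and Jup differed by 0.03, 0.07 and 0.23 log2 and did not pass the test. Fgf13, a modulator of sodium channels, had -1.08 ± 0.13 log2, and the sodium channel genes Scn4b and Scn10a -0.71 and -0.66 log2. Gja1 lost its call without dnPI3K-Mst1 1509 or dnPI3K 3241 (adjusted p = 0.0537 to 0.0554).

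In calcium handling 3 of 26 genes rose and 4 fell (median -0.14 log2), beside 7.60% higher and 6.83% lower of all genes tested. Hrc, which buffers calcium within the sarcoplasmic reticulum, was at 7.75, 7.10, 7.92 and 7.78 log2 in the dnPI3K-Mst1 animals, against 9.44, 9.62, 9.63 and 9.76 in the dnPI3K animals, a fall of 3.93-fold (adjusted p = 2.1e-05). The small inhibitors of the calcium pump, Pln (phospholamban) and Sln (sarcolipin), had -0.78 ± 0.10 and -0.71 ± 0.11 log2, both called. The pump gene Atp2a2 and the release channel gene Ryr2 differed by -0.27 and -0.22 log2 and did not pass the test (adjusted p = 0.0619 and 0.354). Atp2a2 passed it with quantile normalization (adjusted p = 0.0317) and with the filter at the 50th percentile (adjusted p = 0.0361). Cacna2d2, an accessory subunit of voltage-gated calcium channels, was at 8.90, 8.30, 9.28 and 9.01 log2 in the dnPI3K-Mst1 animals, against 6.70, 6.90, 6.23 and 6.73 in the dnPI3K animals, a rise of 2.23 ± 0.20 log2 (adjusted p = 3.73e-05). Cacna2d1 rose by 0.76 ± 0.16 log2, and the pore gene Cacna1c differed by -0.03 log2 (adjusted p = 0.913).

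Sarcomere and Z-disc genes fell in 10 of 40 cases, the 2 creatine kinases of the M-band and mitochondria among them, and rose in 1 (median -0.24 log2). Lmod3, a leiomodin that nucleates thin filaments, was at 5.88, 5.59, 6.52 and 6.38 log2 in the dnPI3K-Mst1 animals, against 8.29, 8.57, 8.34 and 8.50 in the dnPI3K animals, a fall of 5.03-fold (adjusted p = 1.62e-05), and Tmod4, a thin filament capping protein, had -1.55 ± 0.14 log2. Tcap, telethonin, and Tnni3, cardiac troponin I, had -1.17 and -0.81 log2. The thick filament genes Myh6 and Mybpc3 and the actin gene Actc1 differed by -0.23, 0.08 and 0.01 log2, none called. Pdlim3, a Z-disc protein, was the member that rose, at 10.28, 10.38, 10.38 and 10.46 log2 in the dnPI3K-Mst1 animals, against 9.63, 9.27, 9.53 and 9.04 in the dnPI3K animals (1.01 ± 0.12 log2, adjusted p = 0.000284).

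**Figure D4:**
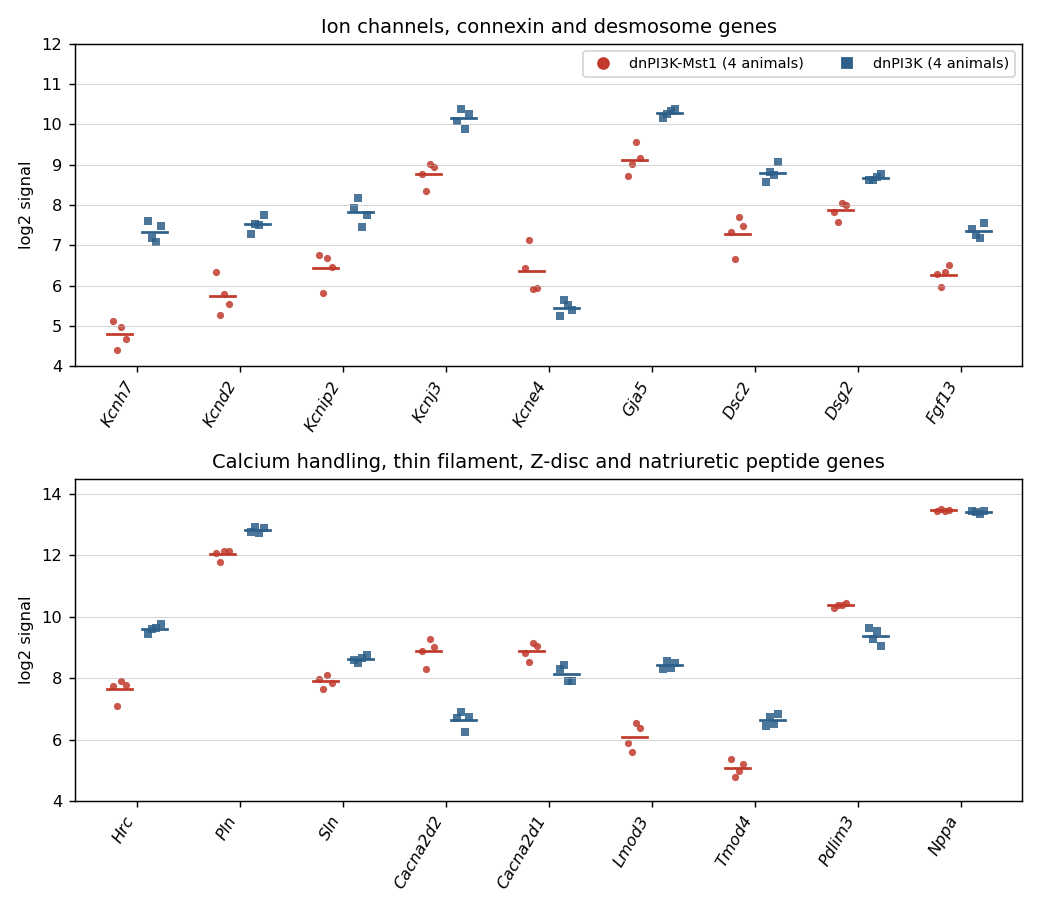
Log2 signal in each Bmp10-low atrium for 9 ion channel, connexin and desmosome genes (top) and 9 calcium, thin filament, Z-disc and natriuretic peptide genes (bottom), dnPI3K-Mst1 left and dnPI3K right for each gene. Points are animals and bars are group means. The groups do not overlap except for Nppa, and Kcne4, Cacna2d2, Cacna2d1 and Pdlim3 are the genes that are higher in dnPI3K-Mst1.

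Autonomic receptors and regulators of G proteins rose in 8 of 28 cases and fell in 4. Over all genes tested, 7.60% were called higher and 6.83% lower. Rgs2 and Rgs6 both curb G-protein signals and moved in opposite directions, Rgs2 at 6.39, 6.77, 6.66 and 6.65 log2 in the dnPI3K-Mst1 animals, against 7.71, 7.95, 7.49 and 8.74 in the dnPI3K animals (-1.36 ± 0.22 log2) and Rgs6 at 9.31, 8.82, 9.52 and 9.47 log2 in the dnPI3K-Mst1 animals, against 8.37, 8.21, 7.78 and 7.93 in the dnPI3K animals (1.21 ± 0.17 log2). Corin, the protease that activates atrial natriuretic peptide, had -1.19 ± 0.18 log2 (adjusted p = 0.00115), while Furin rose by 0.76 log2. Gucy1b1, a subunit of soluble guanylate cyclase, rose by 1.11 ± 0.11 log2. Of 33 cardiac transcription factors 3 rose, or 5 without dnPI3K-Mst1 1647, and 2 fell, beside 7.60% higher and 6.83% lower of all genes tested. Tbx20, a T-box factor of heart muscle, was at 10.57, 10.36, 10.83 and 10.59 log2 in the dnPI3K-Mst1 animals, against 9.20, 9.22, 9.08 and 9.29 in the dnPI3K animals, with narrow groups far apart and a rise of 1.39 ± 0.11 log2 (adjusted p = 1.6e-05). Hopx, a homeodomain-only protein, had -0.74 ± 0.14 log2, and Gata4 and Nkx2-5 differed by 0.31 and 0.15 log2 without a call. Gata4 passed the test without dnPI3K-Mst1 1647 (adjusted p = 0.0216).

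In the unfolded protein and integrated stress response 9 of 41 tested genes rose and 0 fell, or 1 without dnPI3K 1507 (median 0.21 log2). They included the amino acid branch: Asns, asparagine synthetase, was at 6.56, 6.57, 6.72 and 7.39 log2 in the dnPI3K-Mst1 animals, against 5.67, 5.75, 5.86 and 5.998 in the dnPI3K animals (0.99 ± 0.17 log2, adjusted p = 0.00231), and Slc7a5, an amino acid transporter, rose by 0.93 ± 0.16 log2. Ddit3, the factor CHOP, rose by 0.48 log2 (adjusted p = 0.00878). Atf4 and the chaperone gene Hspa5 differed by 0.25 and 0.01 log2 and did not pass the test. Of 44 genes of apoptosis and cell death 2 rose and 2 fell (median 0.07 log2), beside 7.60% higher and 6.83% lower of all genes. Bcl2, which protects from death, was at 7.77, 7.67, 7.69 and 7.90 log2 in the dnPI3K-Mst1 animals, against 7.35, 7.27, 6.90 and 7.14 in the dnPI3K animals (0.59 ± 0.11 log2, adjusted p = 0.00363), and Tnfrsf10b, a death receptor, rose by 0.44 log2. The mitochondrial proteins Aifm1 and Endog, released in cell death, had -0.59 and -0.55 log2. Leaving out an animal gave 1 or 2 higher and 1 to 3 lower. Of 42 tested cell cycle genes 0 rose and 1 fell, Cdkn1c, an inhibitor of cyclin-dependent kinases (-0.66 ± 0.12 log2), and the number that rose was 1 without dnPI3K-Mst1 1647 and 2 without 1649. Tnfrsf10b lost its call without any 1 of 6 animals (adjusted p = 0.0528 to 0.0817) and Aifm1 without dnPI3K-Mst1 1509 or 1649 or dnPI3K 3241 (adjusted p = 0.0514 to 0.0579).

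Of 54 tested genes of PI3K, insulin and FoxO signalling 3 rose and 3 fell (median 0.00 log2). Over all genes tested, 7.60% were called higher and 6.83% lower. Igfbp7, a binding protein of insulin-like growth factors, was at 11.73, 12.08, 11.70 and 11.64 log2 in the dnPI3K-Mst1 animals, against 10.88, 10.50, 10.37 and 10.81 in the dnPI3K animals (1.15 ± 0.13 log2, adjusted p = 0.000221). Sod2, the mitochondrial superoxide dismutase and a FoxO target, had -0.89 ± 0.16 log2, and Grb14, an inhibitor of the insulin receptor, -0.62 ± 0.13 log2. Pik3r1 differed by -0.14 log2 and Akt1 by -0.14 log2, neither called. The number that rose was 5 without dnPI3K-Mst1 1647 and 1 without dnPI3K 1648.

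Some markers of other cell types also differed between the groups, and their part in the results above was not tested. Of 6 tested MHC class II genes 4 rose and 0 fell (median 1.21 log2). Cd74, the invariant chain, was at 9.16, 9.73, 8.41 and 8.35 log2 in the dnPI3K-Mst1 animals, against 7.19, 6.91, 7.74 and 7.46 in the dnPI3K animals, and H2-Ab1 was at 8.86, 9.65, 7.90 and 8.31 log2 in the dnPI3K-Mst1 animals, against 7.12, 6.82, 7.55 and 7.29 in the dnPI3K animals, with animals 1509 and 1647 the highest of the 8 for both. Their differences were 1.59 ± 0.28 and 1.48 ± 0.30 log2 (adjusted p = 0.00276 and 0.00658). The summed signal of the class II genes, the sum of their unlogged signals, was between 1186 and 3158 in dnPI3K-Mst1 atria, against 575 and 902 in dnPI3K atria. Of 25 tested macrophage and monocyte markers 2 rose, Cd14 and Laptm5, and 3 fell. Over all genes tested, 7.60% were called higher and 6.83% lower. The median of these markers was 0.47 log2. The difference was positive for 22 of the 25. The 3 that fell, the only members with a negative difference, were Cd163 (-0.78 ± 0.15 log2), Folr2 (-0.75 ± 0.13 log2) and Timd4 (-0.63 log2). A change in the number of macrophages or monocytes was not tested. Ccr2, a marker of recruited monocytes, differed by 1.39 log2 (adjusted p = 0.0895). The summed macrophage signal was between 4940 and 11960 in dnPI3K-Mst1 atria, against 4492 and 5645 in dnPI3K atria. The number that rose was 4 without dnPI3K-Mst1 1649 and 1 without dnPI3K 1648, 1660 or 3241. Laptm5 lost its call without dnPI3K 1648 or 1660 or 3241 (adjusted p = 0.056 to 0.0702). Ccr2 passed the test without dnPI3K-Mst1 1649 (adjusted p = 0.027).

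Of 16 tested fibroblast markers 5 rose and 3 fell (median 0.31 log2). Meox1, a homeobox factor of activated fibroblasts, was at 9.54, 9.01, 9.84 and 9.53 log2 in the dnPI3K-Mst1 animals, against 8.61, 7.25, 7.18 and 7.18 in the dnPI3K animals, and rose by 1.93 ± 0.29 log2 (adjusted p = 0.00118). Scara5, a scavenger receptor of resident fibroblasts, was at 5.29, 5.41, 5.15 and 5.85 log2 in the dnPI3K-Mst1 animals, against 7.09, 7.47, 7.41 and 7.48 in the dnPI3K animals, a difference of -1.94 ± 0.15 log2 (adjusted p = 1.6e-05). Pdgfra and Dcn, general markers of these cells, differed by -0.25 and 0.12 log2 and were not called. The summed fibroblast signal was between 22473 and 31408 in dnPI3K-Mst1 atria, against 18610 and 20085 in dnPI3K atria, and its part in the rise of the collagens, 3 of which are in both lists, was not tested. Of 16 endothelial markers 5 fell, Flt1, Erg, Kdr, Npr3 and Esam, with differences from -0.67 to -0.49 log2, and Vwf rose by 0.53 log2, a call lost without any 1 of 6 animals. Pecam1 and Cdh5 differed by -0.24 and -0.12 log2, and the summed endothelial signal was between 10467 and 14206 in dnPI3K-Mst1 atria, against 11884 and 14689 in dnPI3K atria. The number of endothelial genes that fell was 3 without dnPI3K-Mst1 1649 or dnPI3K 1660. Of 5 tested lymphatic markers 3 rose, with Mmrn1 at 1.95 ± 0.29 log2 and Lyve1 at 0.73 log2. That count was 1 without dnPI3K-Mst1 1509 or 1650 or dnPI3K 1648 or 3241. Kdr lost its call without dnPI3K-Mst1 1649 or dnPI3K 1660 or 3241 (adjusted p = 0.0519 to 0.0567) and Esam and Lyve1 without any 1 of 6 animals (adjusted p = 0.0508 to 0.13).

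Of 12 atrial myocyte markers, among them Bmp10, which chose the arrays, 6 fell and 0 rose (median -0.41 log2). These were Kcnj3, Gja5, Stard10, Sln, Nr2f2 and Myl7, and the light chain gene Myl7 had -0.31 log2 (adjusted p = 0.0464). The summed signal of these markers was between 26882 and 29809 in dnPI3K-Mst1 atria, against 31646 and 33095 in dnPI3K atria, so the groups did not overlap. Its part in the lower metabolic and channel genes was not tested, and Kcnj3 and Gja5 are also counted in the potassium channel and connexin lists. The abundant atrial genes Nppa and Myl4 differed by 0.05 and -0.11 log2, and Tbx5 by 0.26 log2, none called. Adipocyte, mesothelial, lymphocyte and sinoatrial node lists had 0 called members, of 10, 11, 6 and 9 tested, and at an unadjusted p under 0.05 limma gave 2, 0, 0 and 1. Leaving out 1 animal gave 2 lower adipocyte genes (without dnPI3K-Mst1 1650), 1 lower mesothelial gene (without dnPI3K 1648), and 1 higher gene each of the sinoatrial and atrial myocyte lists (without dnPI3K-Mst1 1647). The summed adipocyte signal was between 695 and 5130 in dnPI3K-Mst1 atria, against 1070 and 1530 in dnPI3K atria. Adipoq and Lep, which define fat cells, were too dim to be tested. Mcpt4, a mast cell protease, was at 6.49, 6.24, 7.05 and 7.20 log2 in the dnPI3K-Mst1 animals, against 4.97, 4.997, 4.93 and 4.60 in the dnPI3K animals, a rise of 1.87 ± 0.19 log2 (adjusted p = 0.000107), while Cpa3 and Cma1 of the same cells were too dim to be tested and Kit differed by -0.13 log2. Myl7 lost its call without any 1 of 6 animals (adjusted p = 0.0591 to 0.143). Tbx5 passed the test without dnPI3K-Mst1 1647 (adjusted p = 0.0342).

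Of 37 tested chemokine, cytokine and complement genes 5 rose and 3 fell, beside 7.60% higher and 6.83% lower of all genes tested. Lcn2, lipocalin-2, was at 7.45, 6.69, 6.68 and 7.07 log2 in the dnPI3K-Mst1 animals, against 5.78, 5.18, 6.37 and 5.63 in the dnPI3K animals (1.23 ± 0.23 log2, adjusted p = 0.00432), and Cx3cl1, fractalkine, rose by 1.07 ± 0.16 log2. Ccl11, eotaxin, was at 5.23, 5.20, 5.10 and 5.39 log2 in the dnPI3K-Mst1 animals, against 6.74, 6.43, 7.37 and 6.82 in the dnPI3K animals, a difference of -1.61 ± 0.17 log2 (adjusted p = 0.000107). The number that rose was 3 without dnPI3K 1648 or 3241. Immediate early genes, whose transcripts appear within minutes of a stimulus, had 0 of 32 called by limma, and 6 at an unadjusted p under 0.05. Fos was at 6.54, 7.57, 7.36 and 6.87 log2 in the dnPI3K-Mst1 animals, against 7.33, 7.28, 8.004 and 5.32 in the dnPI3K animals and Atf3 at 8.91, 8.55, 9.42 and 9.43 log2 in the dnPI3K-Mst1 animals, against 8.85, 7.98, 10.76 and 5.85 in the dnPI3K animals, with dnPI3K animal 3241 the lowest and 1660 the highest of the dnPI3K animals for both. Without dnPI3K 1660, 3 of these genes were called higher.

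The effect of Mst1 was then set against that in the Bmp10-high atria of the same 8 animals, by testing within animals whether the 2 effects differ. In the Bmp10-high atria alone 2155 genes were called (14.2%), 1378 higher and 777 lower. The difference of effects was called for 118 genes (0.775%), 34 with a more positive effect in Bmp10-low atria and 84 with a more negative one. The Bmp10-high array of dnPI3K 3241 had a mean correlation of 0.9682 to the other arrays of its group. For the other Bmp10-high dnPI3K arrays it was 0.9783 to 0.9795. Without animal 3241 the count was 127. Plet1, a placenta-expressed surface protein, moved in opposite directions. In Bmp10-low atria it was at 6.73, 6.30, 6.80 and 6.73 log2 in the dnPI3K-Mst1 animals, against 8.74, 8.09, 7.11 and 8.23 in the dnPI3K animals. In Bmp10-high atria it was at 8.11, 8.20, 8.38 and 8.90 log2 in dnPI3K-Mst1, against 6.19, 6.27, 6.40 and 6.13 in dnPI3K. The effects were -1.40 ± 0.27 and 2.15 ± 0.15 log2 (SE), and the difference, low minus high, was -3.55 ± 0.30 log2 (adjusted p = 5.74e-05).

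Tc2n, a protein with C2 domains, likewise had effects of 1.44 ± 0.16 log2 in Bmp10-low and -0.68 log2 in Bmp10-high atria (difference 2.12 log2, adjusted p = 5.74e-05). Inmt and Ifi205 had a far more negative effect in Bmp10-low atria: the values were -3.34 and -0.75 log2 for Inmt and -2.70 and -0.74 log2 for Ifi205, with differences of -2.59 and -1.97 log2 (adjusted p = 0.00441 and 9.15e-05). For Inmt that call was lost with robust moderation (adjusted p = 0.158) and without the pairing of the atria (adjusted p = 0.0519). Penk, the enkephalin precursor, was the reverse, with -0.94 ± 0.37 log2 in Bmp10-low atria (adjusted p = 0.116) and -2.995 log2 in Bmp10-high atria (difference 2.06 log2, adjusted p = 0.000366, and 0.0885 without the pairing).

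Several of the genes described above had a larger effect in Bmp10-low atria by the same test. Piezo2 had 2.42 log2 there and 0.99 log2 in Bmp10-high atria (adjusted p of the difference = 0.000687), Cacna2d2 2.23 and 0.82 log2 (adjusted p = 0.00762), and Gdf6 2.57 and 1.42 log2 (adjusted p = 0.00449). Postn had 1.73 and 0.25 log2 (adjusted p = 0.000964), Tbx20 1.39 and 0.50 log2 (adjusted p = 0.00449), and Lcn2 1.23 and -0.05 log2 (adjusted p = 0.0147). On the negative side, Scara5 had -1.94 and -0.35 log2 (adjusted p = 0.00149), Ccl11 -1.61 and -0.10 log2 (adjusted p = 0.00538), and Mylk4 -2.56 and -1.26 log2 (adjusted p = 0.00151). Of these genes, Gdf6, Postn and Lcn2 lost the call without the pairing of the atria (adjusted p = 0.0673 to 0.104), and Lcn2 also without dnPI3K 1648 (adjusted p = 0.0523). For immediate early genes the count called in Bmp10-low atria was 0 of 32, against 23 in Bmp10-high atria, but the difference itself was called for 3. Egr1 was 1 of these, with 0.41 log2 in Bmp10-low and 1.84 log2 in Bmp10-high atria (adjusted p = 0.0379). Nrg1 rose in both, by 1.33 and 2.54 log2 (adjusted p of the difference = 0.00532), and Ccn2 had 0.44 and 1.16 log2 (adjusted p = 0.0303). The calls of Egr1 and Ccn2 were each lost without any 1 of 5 of the 8 animals (adjusted p = 0.0637 to 0.133), with moderation without trend (adjusted p = 0.0516 and 0.0603) and without the pairing (adjusted p = 0.832 and 0.476), and that of Egr1 also with robust moderation (adjusted p = 0.197). The median difference of effects was -0.11 log2 over the 76 oxidative phosphorylation genes and -0.03 log2 over the 24 collagens.

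The effect of Mst1 was also set against its effect without dnPI3K, Mst1 minus Ntg, in the 8 Bmp10-low atria of those genotypes, 4 each. None of these arrays belongs to the first comparison. Of the 8, the arrays of Mst1 1839 and of Ntg 1301 and 1662 are labelled left and the other 5 right, whereas all arrays of the first comparison are labelled right. In Mst1 against Ntg 4074 genes were called (26.8%), 2234 higher and 1840 lower. With only the 3 Mst1 and 2 Ntg arrays labelled right, an alternative chosen after the data were seen, 2436 were called, 1375 higher and 1061 lower. Of the genes called in either comparison, 1704 were called in both in the same direction, 77.56% of those called with dnPI3K and 41.83% of those called without, and 4 in opposite directions. Across the 15219 genes the log2 differences correlated at r = 0.7824, a description over genes measured on the same arrays and not independent of each other. Ckm had -3.30 log2 with dnPI3K and -3.57 without, Thbs4 3.38 and 4.28, Cox7a1 -1.67 and -1.89, and Gja5 -1.17 and -1.42 log2.

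The 2 effects were called different for 56 genes (0.368%), 33 with a more positive and 23 with a more negative effect on the dnPI3K background. This count was 28 without dnPI3K 3241 and 94 without Mst1 1466. With only the arrays labelled right it was 23, and 20 of these were among the 56. Adamts8 moved in opposite directions, with -1.52 ± 0.27 log2 with dnPI3K and 1.41 ± 0.30 log2 without (difference -2.92 ± 0.45 log2, adjusted p = 0.00434). Its means were 7.69 log2 in dnPI3K-Mst1, 8.10 in Mst1, 9.20 in dnPI3K and 6.70 in Ntg. Lrtm1, a leucine-rich repeat protein, differed by -0.34 ± 0.11 log2 with dnPI3K (adjusted p = 0.0546, and called at 0.0255 to 0.0393 with array weights, array median centring or quantile normalization, or without dnPI3K-Mst1 1647 or dnPI3K 1507) and by -3.13 log2 without (adjusted p of the difference = 2.22e-07). Its means were 5.05 log2 in dnPI3K-Mst1, 5.21 in Mst1, 5.39 in dnPI3K and 8.33 in Ntg, so 3 of the 4 genotypes were low.

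Nrg1 rose by 1.33 log2 with dnPI3K and by 2.95 log2 without (adjusted p of the difference = 0.0263), a call that was lost without any 1 of 8 of the 16 animals and with robust moderation (adjusted p = 0.0524). Lgals3, galectin-3, had 0.29 ± 0.13 log2 with dnPI3K, not called, and 1.91 log2 without (adjusted p of the difference = 0.000908). Nppb had 0.16 and 1.57 log2 (adjusted p of the difference = 0.0324), its mean being 12.32 log2 in dnPI3K-Mst1, 12.69 in Mst1, 12.16 in dnPI3K and 11.12 in Ntg. That call was lost without any 1 of 9 of the 16 animals (adjusted p = 0.0592 to 0.0826) and with only the arrays labelled right (adjusted p = 0.091). Plet1 had -1.40 and 0.71 log2 (adjusted p of the difference = 0.0174, 0.0506 without Mst1 1840, 0.0553 without dnPI3K 3241, 0.056 with robust moderation and 0.121 with only the arrays labelled right). Fbxw18 had -2.68 and -1.38 log2 (adjusted p of the difference = 0.000959). Over the 10 tested adipocyte markers the median difference of effects was 1.51 log2 and 0 were called by limma, and their part in these differences was not tested.

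**Figure D5:**
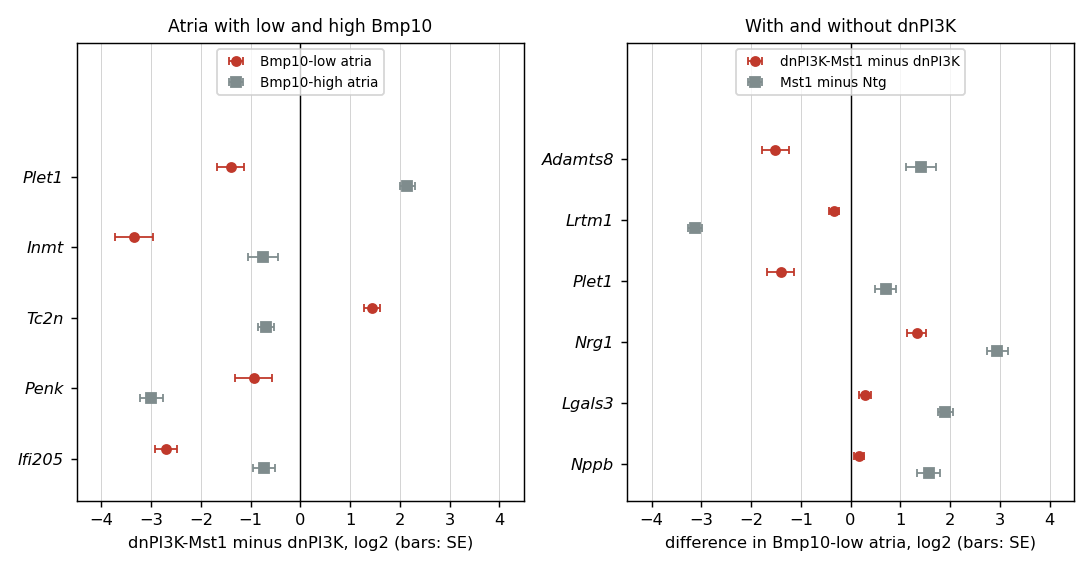
Effect of Mst1 as a log2 difference with its SE. Left: dnPI3K-Mst1 minus dnPI3K in Bmp10-low (circles) and Bmp10-high (squares) atria. Right: the same in Bmp10-low atria (circles) beside Mst1 minus Ntg (squares). Plet1 and Tc2n lie on opposite sides of 0 in the left panel and Adamts8 and Plet1 in the right one.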

How the data were processed

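Total RNA of mouse atria was hybridised to 32 arrays, and per the submitters' processing notes Expression Console and PLIER were used. The authors deposited 1 signal per probe set and array on a log scale, taken here as log2 from its range of 1.16 to 14.08 (the base is not given in the sources used here). Of 35512 probe sets 21789 had 1 gene symbol, 1621 several and 12102 none in the platform annotation. The brightest probe set stood for each of 19938 genes, 999 of which had several. Genes with a mean over the arrays of at least 4.48 log2, the 30th percentile, were tested (15219). The deposited values were not renormalized. Groups were compared with limma 3.58.1 in R 4.3.3 (lmFit, eBayes with trend, Benjamini-Hochberg adjustment over all genes tested), and called means an adjusted p under 0.05. The low minus high difference was fitted on each animal's difference between its arrays. Same-numbered arrays share an animal by their titles, and their deviations correlated at a median r of 0.13 (-0.0099 to 0.44, above 0.1 in 5 of 8 animals). The other differences came from a fit of all 16 Bmp10-low arrays. The members and the 53 gene lists were chosen with earlier results of these data known. Named were the 10 largest rises and falls among called genes without overlap, leaving out Xist, Y-linked genes and unnamed gene models. Up to 4 called members per list and the 5 largest differences of effects were named too. Other genes named for their roles were chosen after their values were seen. Promoters came from RefSeq. The scripts were tested on simulated data. The alternatives tried were array scaling, the filter on dim genes, the treatment of probe sets, moderation, array weights, the arrays in the fit and each animal left out.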

Additional observations from a re-analysis of the deposited data

Results flagged for a closer look

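Among the genes named above, single animals stood far from the other 3 of their group in Bmp10-low atria, with a gap to the nearest larger than Dixon's critical value for 4 animals, for the values that follow in log2. Chance alone marks about 1 in 20 groups in this way. dnPI3K-Mst1 animal 1647 lay above the other animals for Col1a1 (12.07 against 10.47 to 10.72), Col3a1 (11.18 against 9.51 to 9.59), Col4a1 (9.32 against 8.44 to 8.56), Col4a2 (9.20 against 8.44 to 8.49) and Thbs1 (11.23 against 9.60 to 9.68) and below the other animals for Ckm (6.02 against 6.90 to 7.02), Ddit3 (7.17 against 7.31 to 7.33), Grb14 (8.40 against 8.87 to 8.94), Idh2 (9.85 against 10.25 to 10.33), Plet1 (6.30 against 6.73 to 6.80), Pln (11.79 against 12.09 to 12.15) and Stard10 (10.35 against 10.74 to 10.81). dnPI3K-Mst1 animal 1509 lay above the other animals for Flt1 (8.83 against 8.38 to 8.41) and below the other animals for Hspa5 (10.33 against 10.56 to 10.60). dnPI3K-Mst1 animal 1649 lay above the other animals for Tead3 (7.32 against 7.01 to 7.06) and below the other animals for Npr3 (10.21 against 10.55 to 10.62). dnPI3K animal 1507 lay above the other animals for Meox1 (8.61 against 7.18 to 7.25), Nppb (12.40 against 12.04 to 12.10) and Vgll3 (6.66 against 6.40 to 6.45). dnPI3K animal 1648 lay above the other animals for Bmp10 (6.13 against 4.31 to 4.62) and Myh7 (7.88 against 7.60 to 7.63) and below the other animals for Ccr2 (4.11 against 4.58 to 4.66), Ifi205 (7.46 against 8.34 to 8.36), Myl2 (4.40 against 4.68 to 4.74) and Myof (7.21 against 7.80 to 7.82). dnPI3K animal 1660 lay below the other animals for Ltbp2 (5.46 against 5.91 to 5.98) and Rgs5 (9.51 against 9.78 to 9.82). dnPI3K animal 3241 lay above the other animals for Vdac1 (10.26 against 9.91 to 9.96) and below the other animals for Lats2 (7.65 against 7.89 to 7.94) and Mcpt4 (4.60 against 4.93 to 4.997).

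The test of the difference between Bmp10-low and Bmp10-high atria was passed by genes with a more positive effect of Mst1 in Bmp10-low atria, low minus high in log2, which were Tc2n (2.12), Penk (2.06), Postn (1.48), Piezo2 (1.43), Cacna2d2 (1.41), Lcn2 (1.29), Gdf6 (1.14), Igfbp3 (1.12), Lyve1 (0.998), Asns (0.94), Tbx20 (0.90) and Rgs6 (0.79). It was also passed by genes with a more negative effect in Bmp10-low atria, which were Plet1 (-3.55), Inmt (-2.59), Ifi205 (-1.97), Scara5 (-1.59), Ccl11 (-1.51), Fbxw18 (-1.43), Egr1 (-1.42), Mylk4 (-1.30), Adamts8 (-1.23), Nrg1 (-1.21), Dsc2 (-1.04), Rgs5 (-0.92), Ltbp1 (-0.87), Npr3 (-0.85), Ckmt2 (-0.75), Esam (-0.74), Ccn2 (-0.72) and Angpt1 (-0.65). Angpt1, Ccn2, Ckmt2, Dsc2, Egr1, Esam, Ltbp1, Lyve1 and Rgs6 each lost the call without any 1 of 5 to 7 of 8 animals. These genes also lost it without the pairing of the atria (adjusted p = 0.0828 to 0.832). Dsc2, Egr1 and Lyve1 lost it with robust moderation too (adjusted p = 0.0801, 0.197 and 0.0605). Adamts8, Asns and Igfbp3 lost their calls without the pairing of the atria (adjusted p = 0.26, 0.102 and 0.253).

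The effect of Mst1 with dnPI3K minus its effect without, in log2, passed the test at positive values for Lrtm1 (2.79), Agtr1a (0.79) and Pik3r1 (0.73) and at negative values for Adamts8 (-2.92), Plet1 (-2.11), Nrg1 (-1.62), Lgals3 (-1.61), Nppb (-1.41) and Fbxw18 (-1.31). The calls of Agtr1a and Pik3r1 were lost without any 1 of 13 and 12 of the 16 animals. Both were also lost with array median centring (adjusted p = 0.0736 and 0.0678) and with moderation without trend (0.0524 and 0.0528). The same held without the filter on dim genes (0.0547 and 0.0516) and with only the arrays labelled right (0.369 and 0.148). Agtr1a lost its call with quantile normalization too (adjusted p = 0.079).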

How the results depend on the processing

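The comparison of dnPI3K-Mst1 with dnPI3K gave 1528 to 2252 called genes with 1 animal left out and 1991 to 3290 under the other alternatives, 3290 with both arrays of an animal averaged, beside 2197. The difference between Bmp10-low and Bmp10-high atria gave 81 to 127 with 1 animal left out, beside 118. The difference between backgrounds gave 28 to 94 with 1 animal left out and 202 with array weights, beside 56, and the cause was not tested. With only the Bmp10-low arrays labelled right, an alternative with fewer samples that was chosen after the data were seen, it gave 23. With the pairing of the 2 atria of an animal dropped (no replicate block), 43 genes in place of 118 differed between Bmp10-low and Bmp10-high atria. No paired analysis was possible for the other comparisons because their groups share no animal numbers. The Plet1 difference turned to 0.37 log2 (adjusted p = 0.0857) when both arrays of an animal were averaged, an alternative that adds the Bmp10-high arrays, in which Plet1 rose. In dnPI3K-Mst1 against dnPI3K, named genes that lost their call under at least 1 other scaling, filter, moderation, weighting or fit of all 16 Bmp10-low arrays were, with their adjusted p there, Col4a1 (0.0649), Cox6a1 (0.0505 to 0.128), Laptm5 (0.0536), Lats1 (0.0509 to 0.0905), Lyve1 (0.0502 to 0.0782), Mob1a (0.0505), Mybphl (0.0508 to 0.0539), Myl7 (0.0605 to 0.0687), Synm (0.0517 to 0.0688), Tead3 (0.0505 to 0.0738), Tgfb2 (0.0562), Tnik (0.0524), Vwf (0.0547 to 0.0705) and Wwtr1 (0.0507 to 0.0783). Those that gained one were Atp2a2 (0.0317 to 0.0361), Ccr2 (0.0273), Col3a1 (0.0292), Gata4 (0.0311), Ldha (0.0237 to 0.0495), Lrtm1 (0.0255 to 0.03) and Sav1 (0.0489). With both arrays of an animal averaged, calls were lost for Cox6a1, Esam, Igfbp3, Ltbp1, Lyve1, Npr3, Nr2f2, Rgs5, Synm, Tc2n and Tnik and gained for Ankrd1, Atf3, Atf4, Atp2a2, Ccn1, Ccn2, Ccr2, Ckb, Dcn, Fos, Gata4, Ldha, Lgals3, Nppb, Penk, Pik3r1, Ppara, Ppargc1a, Sav1, Tgfb1 and Tgfb3. The filter at the 50th percentile left no gene of the lung and thymus list. With 4 arrays a group, their number limits what small differences could be seen.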

Other observations

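Further gene groups were counted in dnPI3K-Mst1 against dnPI3K, beside 7.60% of all genes tested called higher and 6.83% called lower. Of 23 tested genes of MAP kinase feedback 5 rose and 0 fell (median 0.21 log2), with 2 or 3 higher without any 1 of 6 animals. Of 35 antioxidant and metallothionein genes 3 rose and 5 fell (median 0.05 log2), with 5 and 6 higher without dnPI3K-Mst1 1647 and 1649, 1 higher without dnPI3K-Mst1 1509 or dnPI3K 1648, and 3 lower without dnPI3K 1648 or 3241. Of 23 interferon-stimulated genes 0 rose and 3 fell, or 5 without dnPI3K-Mst1 1647. Of 33 proteasome genes 2 rose and 0 fell, with 5 higher without dnPI3K-Mst1 1647 0 without any 1 of 4 animals and 1 without dnPI3K-Mst1 1649 or dnPI3K 1507. Of 27 heat shock and chaperone genes 0 rose and 1 fell, with 4, 2 and 1 higher without dnPI3K-Mst1 1647, dnPI3K 1507 and dnPI3K 1660, 2 and 3 lower without dnPI3K-Mst1 1649 and 1650, and 0 lower without dnPI3K-Mst1 1509 or dnPI3K 1648. Of 18 circadian clock genes 2 rose and 1 fell, with 4 higher without dnPI3K 1660, 1 higher without any 1 of 4 animals and 0 lower without any 1 of 5 animals. Of 11 tested neuron and Schwann cell markers 2 rose, or 1 without dnPI3K-Mst1 1509 or dnPI3K 3241. Of 12 tested skeletal muscle genes 3 rose and 2 fell (median 0.04 log2), and of 4 tested lung and thymus genes 0 were called by limma and 0 had an unadjusted p under 0.05.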
